A study of Homo sapiens with 25 samples.

Results

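The zinc finger genes of chromosome 19 are described here by the histone marks at their ends in H1 human embryonic stem cells and in 3 stages of endoderm made from them. The set holds every protein-coding gene of the chromosome in the GRCh38 gene table whose symbol is ZNF followed by digits. These are 240 of the 1451 protein-coding genes of chromosome 19, which lists 1211 other genes, and of 20033 protein-coding genes in all. A further 10 symbols with a letter or readthrough suffix did not meet the rule and were kept among the other genes. The rule uses no measured value, but the set was chosen with earlier results of these data known.

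H1 is an established human embryonic stem cell line, and the stages were undifferentiated cells (hESC), definitive endoderm (hDE) and then foregut endoderm, first anterior (hAFE) and next pharyngeal (hPFE). No genotype, dose or differentiation agent is given in the sources used here, and all groups share the H1 line. Chromatin immunoprecipitation with sequencing was deposited for H3K27ac, an acetylation found at active promoters and enhancers, for H3K4me2, a methylation found at active and poised promoters and enhancers, and for H3K27me3, the mark laid down by Polycomb repressive complexes. Each mark had 2 libraries per stage, except 1 library each for H3K27me3 in hAFE and for H3K4me2 in hAFE and hPFE. Of 25 samples, 21 have a peak list used here and 4 are input controls. The lists held 23457 to 111256 peaks, and the read depth behind them is unknown. The hESC H3K27ac and H3K27me3 libraries are labelled as re-analysed, so batch and stage cannot be told apart in any comparison of these marks with hESC. H3K27ac in every library of hESC, hDE, hAFE and hPFE was found at 5, 3, 2 and 3 of 5 stem cell marker genes, at 0, 8, 1 and 1 of 8 definitive endoderm genes and at 0, 2, 4 and 5 of 10 foregut and pharyngeal genes. It was found at 2, 2, 0 and 1 of 5 mesoderm genes and at 0 of 4 neural and 0 of 2 blood genes in each stage. Nothing states that replicates came from separate cultures, so their spread may be technical.

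Most zinc finger genes of this chromosome lie in tandem clusters that grew by duplication during primate and mammalian evolution. Many of their proteins join an array of C2H2 zinc fingers, which reads a DNA sequence, to a KRAB domain, which recruits the corepressor TRIM28 (KAP1) and through it the H3K9 methyltransferase SETDB1. A large share of them bind transposable elements, which are kept silent in pluripotent cells in this way. A gene counted as marked in a library when at least 1 base of a peak lay within 1 kb of either gene end. A stage is said to mark a gene where no library of that stage and mark lacks the peak.

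The promoters that carry the main differences are shown first, as 300 bases from 250 before to 50 after a RefSeq transcription start (RefSeq, GRCh38.p14). Of the 240 ZNF genes, 210 matched an entry in the promoter table. ZNF823, ZNF441, ZNF440 and ZNF433 lie in 1 cluster and had H3K27me3 at the start in both hESC libraries. Their promoters share a run of 11 bases, given in capitals, which begins 103, 35, 66 and 65 bases before the start of ZNF823, ZNF441, ZNF440 and ZNF433. They lie at chr19:11738897-11739196 (minus strand), chr19:11766750-11767049 (plus strand), chr19:11814023-11814322 (plus strand) and chr19:12035630-12035929 (minus strand).
ZNF823: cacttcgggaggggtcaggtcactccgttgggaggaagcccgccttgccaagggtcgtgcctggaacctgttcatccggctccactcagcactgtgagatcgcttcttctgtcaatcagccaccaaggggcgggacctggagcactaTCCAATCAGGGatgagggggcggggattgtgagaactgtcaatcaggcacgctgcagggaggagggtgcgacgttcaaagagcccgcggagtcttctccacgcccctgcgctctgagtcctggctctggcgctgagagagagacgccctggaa
ZNF441: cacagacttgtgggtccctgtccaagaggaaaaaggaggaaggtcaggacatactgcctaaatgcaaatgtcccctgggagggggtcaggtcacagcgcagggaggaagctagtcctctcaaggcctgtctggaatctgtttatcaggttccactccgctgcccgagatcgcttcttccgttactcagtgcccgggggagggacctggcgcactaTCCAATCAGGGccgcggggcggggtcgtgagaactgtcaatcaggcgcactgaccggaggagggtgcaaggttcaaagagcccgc
ZNF440: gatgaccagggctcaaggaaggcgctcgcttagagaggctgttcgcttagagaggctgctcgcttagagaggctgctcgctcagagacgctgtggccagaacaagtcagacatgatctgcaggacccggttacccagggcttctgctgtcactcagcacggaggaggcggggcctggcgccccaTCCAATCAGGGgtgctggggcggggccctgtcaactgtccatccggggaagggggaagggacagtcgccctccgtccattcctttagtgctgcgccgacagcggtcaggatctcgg
ZNF433: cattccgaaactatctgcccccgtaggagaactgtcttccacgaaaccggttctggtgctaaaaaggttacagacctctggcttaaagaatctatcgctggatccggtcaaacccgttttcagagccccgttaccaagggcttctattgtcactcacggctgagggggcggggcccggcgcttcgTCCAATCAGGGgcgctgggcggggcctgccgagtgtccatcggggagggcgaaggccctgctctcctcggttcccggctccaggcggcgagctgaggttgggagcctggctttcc

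The run contains CCAAT, the core of the box bound by NF-Y, and it was searched on both strands. It was present in 23 of 210 ZNF promoters of chromosome 19 (11%), in 8 of 195 promoters of ZNF genes on other chromosomes (4.1%) and in 0 of 975 promoters of other chromosome 19 genes. Over 15841 promoters of all protein-coding genes 39 held it (0.246%), of which 31 belonged to ZNF genes. It was found in 12 of the 24 promoters of the cluster that runs from ZNF653 to ZNF791 (50%) and in 11 of 186 ZNF promoters elsewhere on the chromosome (5.91%). The run was taken from 4 genes picked for their H3K27me3, so its link with that mark is a description. Those 4 genes hold it by construction and all lie in the cluster from ZNF653 to ZNF791. They are included in the counts above for ZNF promoters, for this cluster and for all promoters. With those 4 left aside, H3K27me3 in hESC lay at 2 and 4 of the 19 other genes with the run (10.5% and 21.1%, replicates 1 and 2), against 6 and 39 of the 187 without it (3.21% and 20.9%), so in replicate 2 the shares were alike.

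A further 3 promoters are shown for the motif, of 9 searched on both strands, whose share differed most from the rest of the chromosome, the ETS core CGGAAG, with CGGAAG and its reverse complement CTTCCG in capitals. ZNF808, whose loss in humans is known to cause failure of pancreas formation, starts within chr19:52527418-52527717 (plus strand). ZNF91, which represses SVA retrotransposons, starts within chr19:23395422-23395721 (minus strand). ZNF274, which binds the zinc finger coding ends of other ZNF genes, starts within chr19:58182811-58183110 (plus strand).
ZNF808: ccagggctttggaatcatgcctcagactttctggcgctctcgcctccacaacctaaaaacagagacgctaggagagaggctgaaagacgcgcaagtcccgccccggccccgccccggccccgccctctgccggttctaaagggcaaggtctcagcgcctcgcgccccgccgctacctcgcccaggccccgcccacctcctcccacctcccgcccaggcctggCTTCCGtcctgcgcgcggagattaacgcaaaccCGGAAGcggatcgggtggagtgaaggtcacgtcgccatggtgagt
ZNF91: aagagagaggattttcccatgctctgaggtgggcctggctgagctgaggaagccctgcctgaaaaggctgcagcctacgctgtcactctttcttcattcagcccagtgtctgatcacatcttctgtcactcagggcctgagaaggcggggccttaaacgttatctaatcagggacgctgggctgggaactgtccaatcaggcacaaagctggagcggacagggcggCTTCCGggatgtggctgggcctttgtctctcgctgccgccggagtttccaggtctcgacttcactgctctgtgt
ZNF274: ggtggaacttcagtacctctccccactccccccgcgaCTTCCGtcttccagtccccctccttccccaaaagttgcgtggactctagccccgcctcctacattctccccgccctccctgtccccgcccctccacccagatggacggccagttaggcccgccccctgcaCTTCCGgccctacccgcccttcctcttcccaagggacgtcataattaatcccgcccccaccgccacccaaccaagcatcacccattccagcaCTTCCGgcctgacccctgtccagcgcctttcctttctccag

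CGGAAG in either direction was present in 121 of 210 ZNF promoters (57.6%), in 240 of 975 promoters of other chromosome 19 genes (24.6%), in 90 of 195 promoters of ZNF genes elsewhere (46.2%) and in 4039 of 15841 promoters overall (25.5%). CCAAT or ATTGG was present in 53.3% of the ZNF promoters, against 37.6% of the other promoters of the chromosome and 36.4% overall. TATAAA or TTTATA was present in 2.38% of ZNF promoters, against 8% of the others and 9.75% overall. The GC box GGGCGG or CCGCCC differed less, at 69% of ZNF promoters against 65.3% of the others and 58.3% overall. The E-box CACGTG was present in 3.81%, against 8.51% of the others and 8.83% overall. The YY1 motif AAGATGGC (6.19% against 5.44%, 3.86% overall), the NRF1 motif GCATGCGC (3.81% against 5.54%, 4.28% overall), the ZBTB33 motif TCTCGCGA (1.43% against 1.03%, 1.75% overall) and the cAMP response element TGACGTCA (3.33% against 3.38%, 2.56% overall) were rare in both. The median promoter had 20.0 CpG in the ZNF genes and 21.0 in the others, with a GC content of 60.2% against 64%. A match describes letters in this window and does not show that a factor was bound.

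ZNF genes carried the active marks more often than the rest of the chromosome and H3K27me3 less often, in every library. H3K27ac marked 71.2% ± 10.6 of the ZNF genes, against 49.6% ± 7.42 of the others (mean ± SD over 8 libraries). H3K4me2 marked 83.6% ± 1.34 of the ZNF genes, against 68.8% ± 3.62 of the others (6 libraries). H3K27me3 marked 7.14% ± 7.02 of the ZNF genes, against 18% ± 4.18 of the others (7 libraries). The difference within a library was 21.6 ± 5.59 percentage points for H3K27ac (13.3 to 28.8, higher in 8 of 8 libraries), 14.8 ± 2.81 for H3K4me2 (10.8 to 17.6, higher in 6 of 6) and -10.9 ± 4.72 for H3K27me3 (-16.1 to -4.34, lower in 7 of 7). No test was run on these shares, since genes of 1 library are not replicates and 2 libraries against 2 cannot give a two-sided exact permutation p below 0.333.

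ZNF genes of chromosome 19 stood closer to the 237 ZNF genes of other chromosomes than to their neighbours. They were marked by H3K27ac less often than those by 3.59 ± 2.28 percentage points (lower in 8 of 8 libraries) and by H3K4me2 less often by 5 ± 0.979 (lower in 6 of 6). For H3K27me3 the difference was -1.72 ± 3.42, lower in 5 of 7 libraries and within its spread over libraries of all stages. Counted by stage, H3K27me3 marked 4.17%, 0.833%, 1.67% and 1.67% of chromosome 19 ZNF genes in hESC, hDE, hAFE and hPFE. The ZNF genes of other chromosomes were higher at each stage, at 11%, 4.22%, 3.38% and 2.11%.

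**Figure D1:**
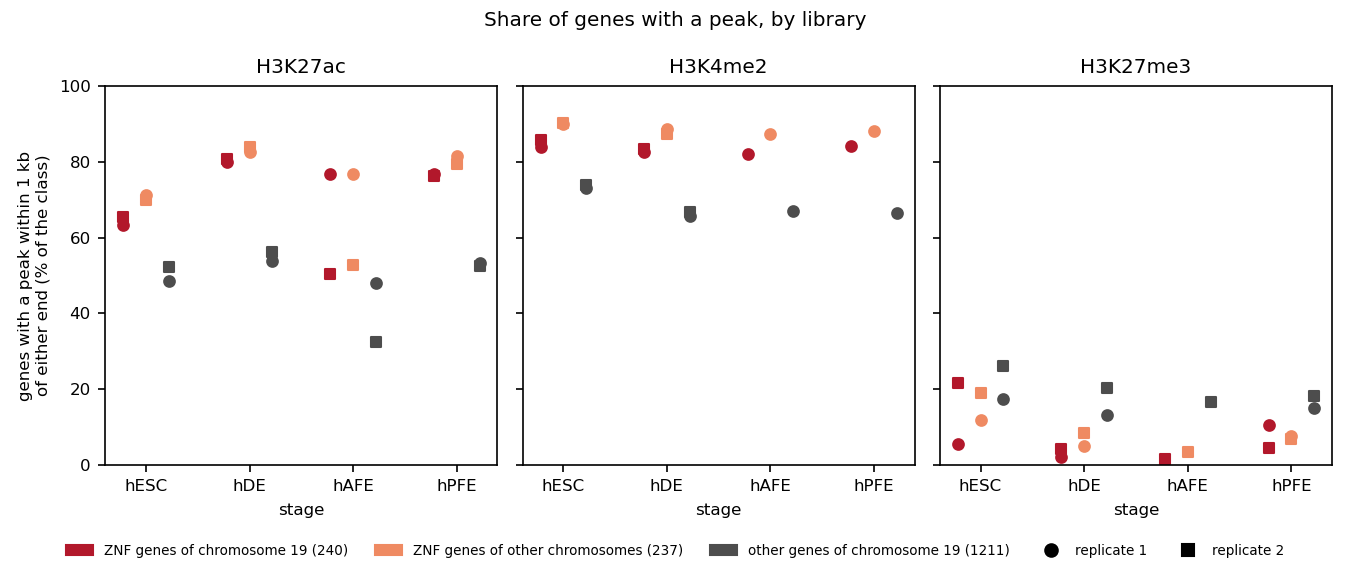
Share of genes with a peak within 1 kb of either end (y axis, %) at each stage (x axis) for each of 21 libraries; red is the 240 ZNF genes of chromosome 19, orange the 237 ZNF genes of other chromosomes and grey the 1211 other genes of chromosome 19, with circles for replicate 1 and squares for replicate 2. The red points lie above the grey ones in every H3K27ac and H3K4me2 library and below them in every H3K27me3 library, and hAFE H3K27ac replicate 2 lies low for all classes (50.4%, 52.7% and 32.5%).

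By stage, H3K27ac marked 141, 188, 120 and 173 of the 240 ZNF genes in hESC, hDE, hAFE and hPFE (58.8%, 78.3%, 50% and 72.1%). The other chromosome 19 genes were at 44.8%, 52%, 32.2% and 48.2% in the same stages, and all protein-coding genes at 42.9%, 54%, 34.2% and 50.2%. H3K4me2 marked 201, 195, 197 and 202 ZNF genes in hESC, hDE, hAFE and hPFE (83.8%, 81.2%, 82.1% and 84.2%), with 72.3%, 68%, 70.2% and 70.1% of all genes. H3K27me3 marked 10, 2, 4 and 4 ZNF genes (4.17%, 0.833%, 1.67% and 1.67%), with 19.2%, 13.4%, 15.5% and 12.7% of all genes. The low hAFE count for H3K27ac came with 1 short list: replicate 2 held 24871 peaks and marked 50.4% of the ZNF genes, and replicate 1 held 42100 and marked 76.7%. With hAFE left aside, the H3K27ac share was thus lowest in hESC and highest in hDE, where the lists were also longer, at 101186 and 111076 peaks against 75087 and 68306 in hESC. In these bulk libraries, fewer cells with a mark and less of it per cell cannot be told apart.

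Combinations of marks differed as well. H3K4me2 with H3K27ac in every library and no H3K27me3 in any was found at 122, 172, 115 and 148 ZNF genes of hESC, hDE, hAFE and hPFE (50.8%, 71.7%, 47.9% and 61.7%), against 38.3%, 44.5%, 30.3% and 44.6% of the other genes. H3K4me2 and H3K27me3 were both found at 10, 2, 4 and 4 ZNF genes (4.17%, 0.833%, 1.67% and 1.67%), against 15.6%, 9.08%, 13% and 8.84% of the others. Either end counted for each mark, so these are not counts of bivalent starts, the pattern of developmental regulators in stem cells. The H3K27me3 peaks of ZNF653 in hDE and of ZNF653 and ZNF43 in hPFE, for example, lay at the far end.

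Both active marks lay at the start of the ZNF genes and rarely at the far end. Among the 210 ZNF genes with a known strand, H3K27ac lay within 1 kb of the start in 51.4% to 80.5% per library and within 1 kb of the far end in 1.43% to 5.24%. Among 975 other genes the start was marked in 32% to 54.3% and the far end in 4.82% to 17%. Peak cover was highest 250 bases downstream of the start for H3K27ac, at 56.7% of ZNF genes against 30.4% of the others, and 750 bases downstream for H3K4me2, at 68.9% against 44.7%. At 5 kb downstream H3K27ac covered 0.297% of ZNF genes and 2.47% of the others. Where a peak was present, the median H3K27ac fold enrichment at ZNF genes was lower than at the others in 5 of 8 libraries and higher in 3. In hESC it was 4.87 and 4.6, against 5.16 and 5.13 at the others, and in hDE 6.8 and 7.52, against 6.59 and 7.31 (replicates 1 and 2). For H3K4me2 it was lower at ZNF genes in 5 of 6 libraries.

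**Figure D2:**
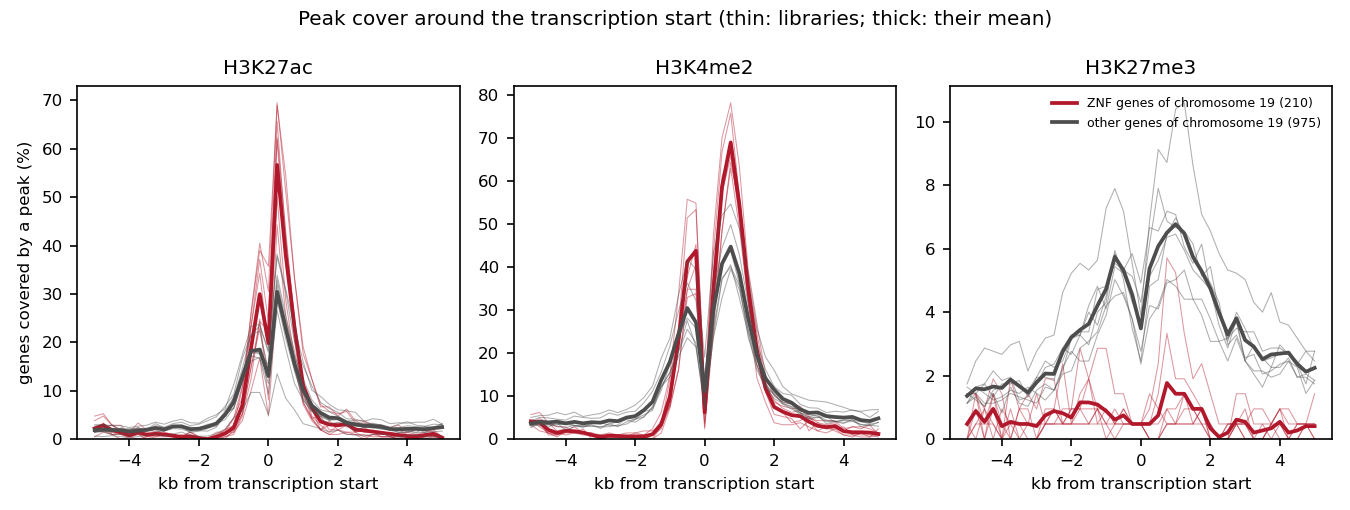
Percentage of genes covered by a peak (y axis, with its own scale in each panel) by distance from the transcription start (x axis, kb, positive downstream) for 210 ZNF genes (red) and 975 other genes of chromosome 19 (grey); thin lines are libraries and thick lines their mean. Both active marks dip at the start itself and peak just downstream, higher for the ZNF genes (56.7% against 30.4% for H3K27ac), while H3K27me3 reaches 1.77% at ZNF genes and 6.78% at the others.

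ZNF genes named here for a known target or role are single cases, beside the 42.5% of all ZNF genes with H3K27ac in all 8 libraries. ZNF91 had H3K27ac in every library, with a fold enrichment over input of 6.56 and 10.8 in hESC, 11.7 and 16 in hDE, 9.56 and 8.2 in hAFE and 9.65 and 17.1 in hPFE (replicates 1 and 2 of each stage). ZNF93, which binds LINE-1 elements, had 5.88 and 8.05 in hESC, 7.47 and 10.8 in hDE, 5.86 and 6.79 in hAFE and 5.82 and 7.41 in hPFE. ZNF649, also a LINE-1 binder, had 10.4 and 6.84, 15 and 16.2, 12.4 and 4.93, and 5.88 and 3.43 in the same order. These values are the authors' own for each list, and their size is not comparable between libraries, so only presence is read across stages.

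ZNF808 had H3K27ac at its start of 4.85 and 4.47 in hESC, 6.44 and 9.38 in hDE, 5.27 in hAFE replicate 1 and 3.92 and 5.14 in hPFE. In hDE a further peak (7.86 and 9.29) lay within 1 kb of its far end and also at the start of ZNF701. The short hAFE replicate 2 was its 1 library without a peak. It carried no H3K27me3 in any library. ZNF274 had H3K27ac in all 8 libraries, from 5.76 in hAFE replicate 2 to 20.1 in hPFE replicate 2. ZNF534, which binds endogenous retroviruses of the HERV-H class, had neither H3K27ac nor H3K4me2 at either end in any library and H3K27me3 of 2.8 in hESC replicate 2 alone, at its far end.

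ZNF146, a protein of fingers without a KRAB domain, had the most securely ranked H3K27ac of the set: its peak was never below the top 3.73% of a list. ZNF793, ZNF91, ZNF428 and ZNF460 followed, with worst ranks of 4.36%, 4.79%, 5.53% and 5.64%. ZNF473, a factor of histone pre-mRNA processing, lacked H3K27ac in hESC replicate 2 and hAFE replicate 2 only, and its peaks in the other 6 libraries also met an end window of VRK3. ZNF331, an imprinted gene, had H3K27ac in hDE replicate 2 alone (2.89), and its H3K4me2 differed between replicates of hESC and hDE. ZNF541, a gene of male meiosis, had none of the 3 marks at its ends in any library.

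ZNF296, which is expressed in pluripotent cells, had H3K27ac of 4.1 and 4.89 in hESC and 3.83 and 4.5 in hDE, and none in the 4 hAFE and hPFE libraries. It had H3K27me3 at the start in hAFE (4.27), and in no library of the other stages. Its H3K4me2 was present at every stage, from 4.23 in hAFE to 9.03 in hESC replicate 2. The H3K27me3 peak, every H3K4me2 peak and the H3K27ac peaks of replicate 1 also met an end window of GEMIN7. It was the 1 ZNF gene that lost H3K27ac in hPFE against hESC, where 3.81% of all genes acetylated in hESC did.

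ZNF536, a zinc finger factor of the nervous system that lies outside the clusters, was the 1 ZNF gene with H3K27me3 in all 7 libraries. The fold enrichment was 13.6 and 13.2 in hESC, 7.45 and 9.39 in hDE, 7.61 in hAFE and 7.17 and 6.54 in hPFE. In hESC replicate 1 the peak spanned 2900 bases at the start, chr19:30222761-30225660. H3K4me2 lay at the start in every library as well (2.85 to 10.9). H3K27ac was listed at the start in hDE replicate 1 (3.07) and at the far end in hPFE replicate 2 (3.63), and in no other library. H3K27me3 in all 7 libraries was thus seen at 1 of 240 ZNF genes (0.417%), against 104 of the 1211 other genes of the chromosome (8.59%).

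With the lists as deposited, the most frequent change was a gain of H3K27ac in hDE against hESC, at ZNF genes that already had H3K4me2. A gain means a peak in every library of the later stage and in none of the earlier one. Of the 72 ZNF genes without H3K27ac in hESC, 27 gained it in hDE (37.5%), against 48 of 534 other genes of the chromosome (8.99%), 19 of 55 ZNF genes elsewhere (34.5%) and 14.6% of all genes that could. The hESC H3K27ac libraries are those labelled as re-analysed. All 27 genes had H3K4me2 in both hESC libraries, as did 37 of the 48 other genes and 1164 of the 1347 genes in all that gained H3K27ac. Among genes with H3K4me2 but no H3K27ac in hESC, 27 of 34 ZNF genes gained H3K27ac (79.4%), against 37 of 209 other genes (17.7%), 19 of 32 ZNF genes elsewhere (59.4%) and 1164 of 4104 genes overall (28.4%). Among those of them with H3K27me3 in no hESC library, 10 of 14 ZNF genes gained it (71.4%), against 23 of 68 others (33.8%), 9 of 12 ZNF genes elsewhere (75%) and 442 of 1022 genes overall (43.2%).

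The best ranked gain was at ZNF792, with H3K27ac of 10.4 and 7.74 in hDE, against no peak in either hESC library. Its hDE peak was broad, spanning 2458 bases at chr19:34962019-34964476 in replicate 1. In hAFE neither library had a peak, and in hPFE replicate 1 alone did (2.62), so the mark at ZNF792 was seen mainly in hDE.

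ZNF433 had 7.92 and 10.4 in hDE, against no peak in hESC, and then kept a peak in every library, with 10.1 and 5.01 in hAFE and 10.1 and 10.9 in hPFE. ZNF440 had 6.13 and 6.49 in hDE, 4.89 and 2.44 in hAFE and 6.8 and 5.08 in hPFE. ZNF491, between ZNF441 and ZNF440 on the chromosome, had 5.79 and 7.95, 5.39 and 2.44, and 6.26 and 4.15 in the same order. These 3 genes of 1 cluster, like ZNF709 of the same cluster, had no H3K27ac in hESC and had it in all 6 later libraries. In hAFE the worse ranked peak of ZNF440 and of ZNF491 lay at 94.6% of its list. ZNF665 had 4.98 and 5.37 in hDE and then a peak in hAFE replicate 1 (3.09) and hPFE replicate 2 (2.71) only.

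ZNF350, a KRAB repressor, gained H3K27ac in hDE (3.55 and 6.42) and had it in hPFE (5.77 and 3.55). ZNF382, another KRAB repressor, had 4.73 and 2.94 in hDE and shares its peak with ZNF529, whose start faces it. Apart from this pair and ZNF83, whose peak also met an end window of LOC122539214, the gained peaks of 24 genes touched no other gene's end. All 24 gained genes with a known strand had a peak at the start in both hDE libraries. The best peaks of the replicates did not always overlap, for example at ZNF224.

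Of the 27 genes, 16 had H3K27ac in every hPFE library, 2 in none and 9 in 1 of 2. In hAFE 6 had it in every library, 8 in none and 13 in 1 of 2. Against hESC, 18 of 72 ZNF genes gained H3K27ac in hPFE (25%), against 42 of 534 others (7.87%). The share was 27.3% of ZNF genes elsewhere (15 of 55) and 11.4% of all genes. Of the 18 ZNF genes of chromosome 19, 16 were among the 27 of hDE, but both counts use the same hESC libraries. The best ranked were ZNF433, ZNF440, ZNF224, ZNF709 and ZNF491. ZNF224, a KRAB repressor, had 6.51 and 5.62 in hPFE, against none in hESC, and ZNF709 had 7.23 and 4.27, against none in hESC. Among genes with H3K4me2 in hESC and H3K27me3 in none of its libraries, 4 of 14 ZNF genes gained H3K27ac in hPFE (28.6%), against 20 of 68 others (29.4%), 6 of 12 ZNF genes elsewhere (50%) and 381 of 1022 overall (37.3%), so in this group ZNF genes did not exceed the rest.

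The number of hDE gains depends on the length of the lists. With every H3K27ac list cut to its best 24871 peaks, 16 ZNF genes gained the mark in hDE (16.8% of 95), against 20 of 636 others (3.14%) and 6.67% of all genes. Without hESC replicate 1, 37 of 83 gained it (44.6%), against 13.3% of the others and 18.6% of all genes. Without hESC replicate 2, 40 of 88 did (45.5%), against 14.8% of the others and 20% of all genes. ZNF genes gained H3K27ac in a larger share than the others in each of these settings. With the lists cut to 24871 peaks, 18 of 95 ZNF genes gained it in hPFE against hESC (18.9%), more than in hDE. The shares there were 3.3% of the others and 7.49% of all genes.

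H3K27ac losses were few. ZNF586 lost it in hDE, with no peak there against 3.95 and 5 in hESC, and had it again in hPFE (3.94 and 3.43). That was 1 of 141 ZNF genes (0.709%), against 17 of 542 others (3.14%) and 2.76% of all genes. In hAFE against hDE 11 of 188 ZNF genes lost it (5.85%), against 75 of 630 others (11.9%) and 12.5% of all genes, with ZNF792, ZNF773, ZNF296, ZNF841 and ZNF222 the best ranked. Without hAFE replicate 1, which leaves the short list alone, 69 ZNF genes would count as lost, so hAFE counts turn on that library.

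ZNF444 was the 1 gain in hAFE against hDE, of 42 ZNF genes that could gain (2.38%) and beside 1.17% of all genes, with 5.85 and 6.64 in hAFE, no peak in hDE, and 3.13 and 5.4 in hPFE. It had H3K4me2 in hAFE alone (3.76). In hPFE against hAFE, ZNF773, ZNF222, ZNF28 and ZNF554 gained H3K27ac, 4 of 55 (7.27%) beside 7.7% of all genes, and 0 of 120 lost it, beside 0.539% of all genes. Without hAFE replicate 1 the 4 gains become 54.

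**Figure D3:**
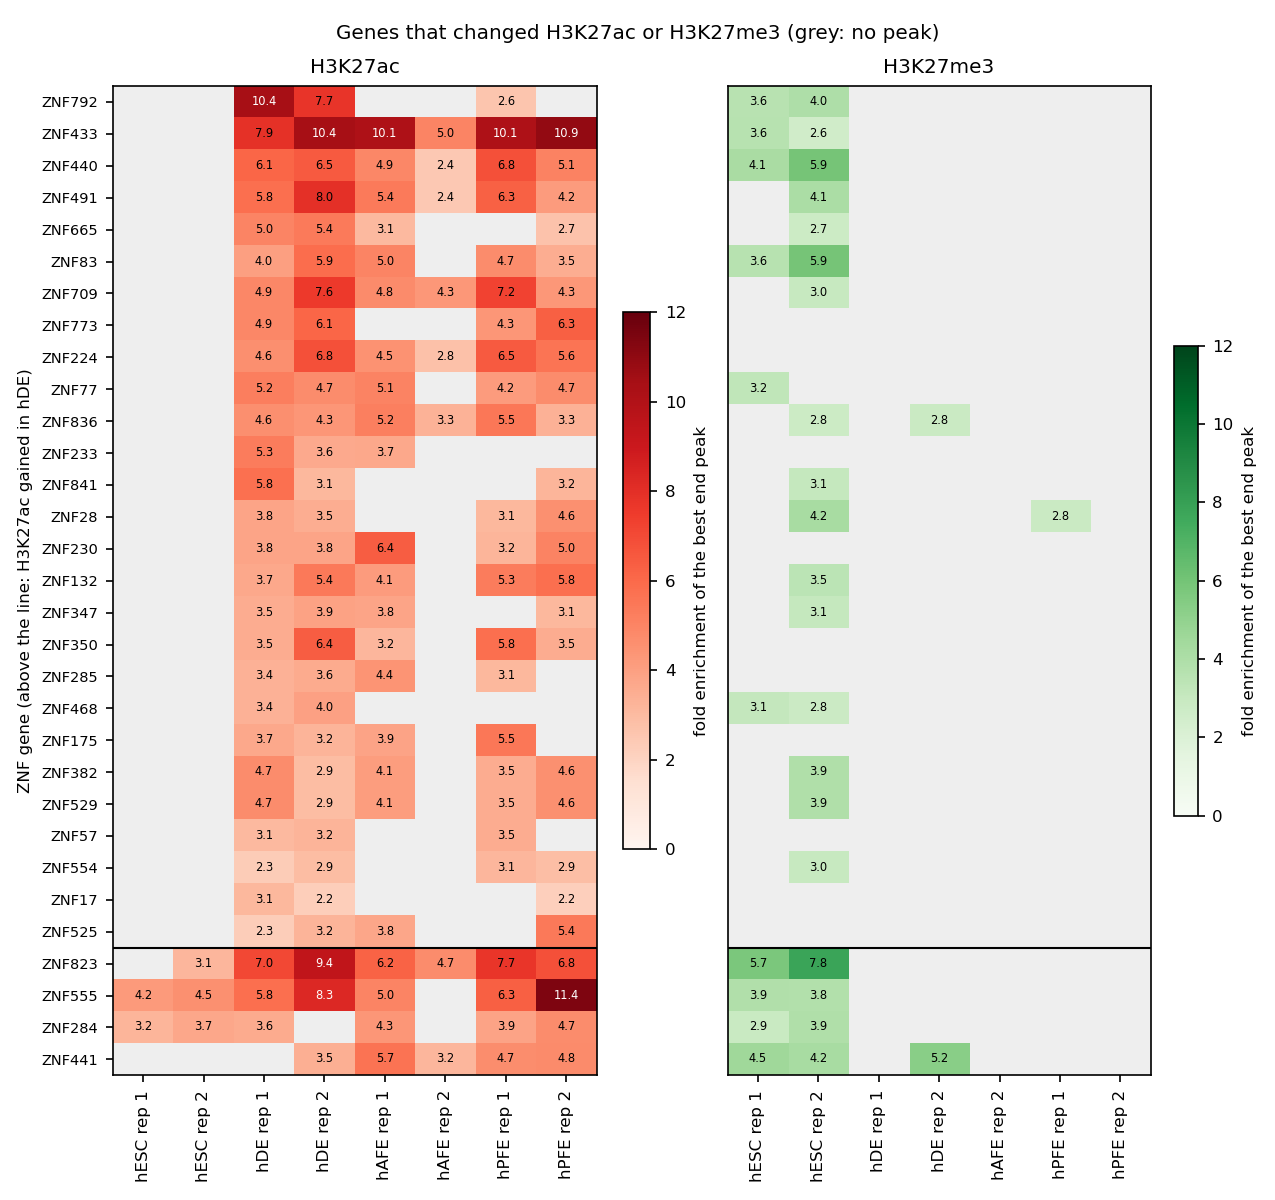
Fold enrichment over input of the best end peak (colour and number, authors' values) in each library (x axis) for the 27 ZNF genes that gained H3K27ac in hDE against hESC (above the line, best ranked first) and 4 more that lost H3K27me3 in hDE or hPFE against hESC (below it); left H3K27ac, right H3K27me3, grey where no peak was listed. The 27 genes are grey in both hESC H3K27ac columns by the rule that chose them. The H3K27me3 values lie almost entirely in the hESC columns, which for the genes that lost H3K27me3 also follows from the rule that chose them.

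H3K4me2 at ZNF genes hardly changed in hDE against hESC. Of 201 ZNF genes with H3K4me2 in hESC, ZNF253 alone lost it in hDE (0.498%), against 56 of 865 others (6.47%) and 2.82% of all genes. ZNF253 had 7.11 and 4.56 in hESC, no peak within 1 kb of its ends in either hDE library, and 4.48 in hPFE, with H3K27ac in all 8 libraries. With a 2.5 kb window or over whole genes, 0 ZNF genes lost H3K4me2 in hDE, so this loss depends on the window. None of 34 ZNF genes gained H3K4me2 in hDE, beside 1.87% of all genes.

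H3K27me3 lay at 13 and 52 ZNF genes in hESC (5.42% and 21.7%, replicates 1 and 2), 5 and 10 in hDE (2.08% and 4.17%), 4 in hAFE (1.67%) and 25 and 11 in hPFE (10.4% and 4.58%). hESC replicate 2 was thus the highest, and hPFE replicate 1 was above hESC replicate 1. Of 10 ZNF genes with H3K27me3 in both hESC libraries, 8 had it in neither hDE library (80%), against 37 of 201 others (18.4%), 10 of 26 ZNF genes elsewhere (38.5%) and 22.2% of all genes. The 8 were ZNF823, ZNF440, ZNF555, ZNF792, ZNF83, ZNF284, ZNF468 and ZNF433, and each had a peak at the start in both hESC libraries. At ZNF792 and ZNF433 the best peaks of replicates 1 and 2 did not overlap. At ZNF792 they were chr19:34964914-34965050 and chr19:34963006-34963609. In hPFE the same 8 and ZNF441 had lost it against hESC, 9 of 10 (90%), against 64 of 201 others (31.8%). The share was 65.4% of ZNF genes elsewhere (17 of 26) and 32.4% of all genes. The 1 gene of the 10 outside these losses was ZNF536.

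ZNF823 had the best ranked of these peaks, of 5.72 and 7.79 in hESC, against no H3K27me3 peak in hDE, hAFE or hPFE. Its H3K27ac was 7.05 and 9.38 in hDE, against 3.15 in 1 of 2 hESC libraries. ZNF441 had H3K27me3 of 5.25 in hDE replicate 2 and none in replicate 1, against 4.5 and 4.19 in hESC. ZNF440 had none in hDE, against 4.14 and 5.94 in hESC. ZNF433 had none in hDE, against 3.63 and 2.56 in hESC, the last a peak ranked at 88.3% of its list.

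H3K27me3 peaks at ZNF genes were on the whole weaker in hESC than those at other genes. Over all 13 and 52 ZNF genes with a peak, the median -log10 p was 4.41 and 4.16, against 7.98 and 8.83 at the other genes, and the median rank was 59% and 54.3% of the list, against 27.9% and 17%. The 8 genes that lost the mark in hDE had hESC fold values from 2.56 at ZNF433 to 7.79 at ZNF823. Restricted to a -log10 p of at least 5, 4 of 6 ZNF genes lost it (66.7%), against 23.5% of the others and 24.2% of all genes. With 200 bp of overlap asked for, 3 of 5 did (60%), against 19.9% of the others and 24.6% of all genes. Without hESC replicate 1 the hDE loss would count 47 of 52 genes (90.4%), against 37.8% of the others and 36.2% of all genes. The file name of hESC replicate 1, like those of replicate 1 of hDE and hPFE, carries the word millipore, whose meaning is not given in the sources used here.

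Loss of H3K27me3 and gain of H3K27ac in hDE met at 5 genes: ZNF440, ZNF433, ZNF792, ZNF83 and ZNF468. These are 62.5% of the 8 that lost H3K27me3 and 18.5% of the 27 that gained H3K27ac. The same overlap was not counted over the other genes, so these shares are a description only. Among ZNF genes with H3K4me2 and without H3K27ac in hESC, 5 of 7 with H3K27me3 in both hESC libraries gained H3K27ac in hDE (71.4%), the same share as the 10 of 14 with H3K27me3 in neither. For the other genes of the chromosome these shares were 12 of 119 (10.1%) and 23 of 68 (33.8%), and over all genes 20.5% and 43.2%. All 8 had H3K4me2 in both hESC libraries, as did 189 of the 201 other genes of the chromosome with H3K27me3 in both. At ZNF83 H3K27me3 was absent in hDE, against 3.63 and 5.94 in hESC, and H3K27ac was 3.99 and 5.88 in hDE, against none in hESC. At ZNF468 H3K27ac was 3.37 and 3.97 in hDE and in no other stage. Of the 8 promoters, 1 held CGGAAG or CTTCCG (12.5%), against 57.6% of all ZNF promoters of the chromosome.

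H3K27me3 gains against hESC were rarer and, in hDE and hPFE, did not lie at starts. ZNF653, a transcriptional repressor, was the 1 gain in hDE against hESC, of 185 ZNF genes that could gain (0.541%) and beside 0.868% of all genes. Its H3K27me3 was 6.65 and 9.94 in hDE, 7.35 in hAFE and 7.79 and 4.2 in hPFE, against none in hESC. The peak lay beyond the far end, at chr19:11481117-11482727 in hDE replicate 1, and also reached an end window of ELAVL3, the neighbouring gene for a neuronal RNA-binding protein. The start of ZNF653 had H3K27ac in all 8 libraries, for example at chr19:11505456-11505853 in hDE replicate 1. In hPFE ZNF43 gained a weak far-end peak as well (2.67 and 3.02), so that 2 of 185 gained there (1.08%), beside 1.55% of all genes.

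Presence across libraries was constant at most ZNF genes for H3K4me2 and varied for H3K27ac. H3K4me2 marked 190 ZNF genes in all 6 libraries (79.2%) and 31 in none (12.9%), against 59.6% and 21.9% of the others. H3K27ac marked 102 in all 8 libraries (42.5%), 105 in some and 33 in none (13.8%), with all and none at 29.6% and 33.1% of the others. H3K27me3 marked 155 in no library (64.6%), against 63.8% of the others. Of the 85 ZNF genes with H3K27me3 in any library, 62 had it in exactly 1, against 144 of 438 others.

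The 31 genes without H3K4me2 at either end were also without H3K27ac there in 28 cases. In chromosome order the first 12 were ZNF556, ZNF558, ZNF177, ZNF560, ZNF563, ZNF442, ZNF799, ZNF257, ZNF676, ZNF729, ZNF98 and ZNF492. Many carried the mark further inside: 14 had H3K4me2 within the gene in every library. Of the 31, 24 had a RefSeq promoter entry. Among those, 12 had H3K4me2 within 1 kb of a RefSeq start other than the outer ends in every library. The genes without an entry, among them ZNF676, ZNF729, ZNF98, ZNF99 and ZNF728, could not be searched for such a start. At ZNF558, for example, H3K4me2 lay inside the gene in all 6 libraries, at a median of 5.62 kb from the nearest end, and H3K27ac lay inside it in all 8. ZNF729, ZNF728 and ZNF534 had no H3K4me2 anywhere in the gene in any library.

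Counting every RefSeq start widened the gap between the classes. In hDE H3K27ac then marked 89.5% and 89% of 210 ZNF genes, against 54.9% and 56.5% of the others. In hESC it marked 71.4% and 74.8% of ZNF genes, against 49% and 51.1% of the others. H3K4me2 marked 91% to 93.3% of ZNF genes, against 67.9% to 75.1% of the others.

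**Figure D4:**
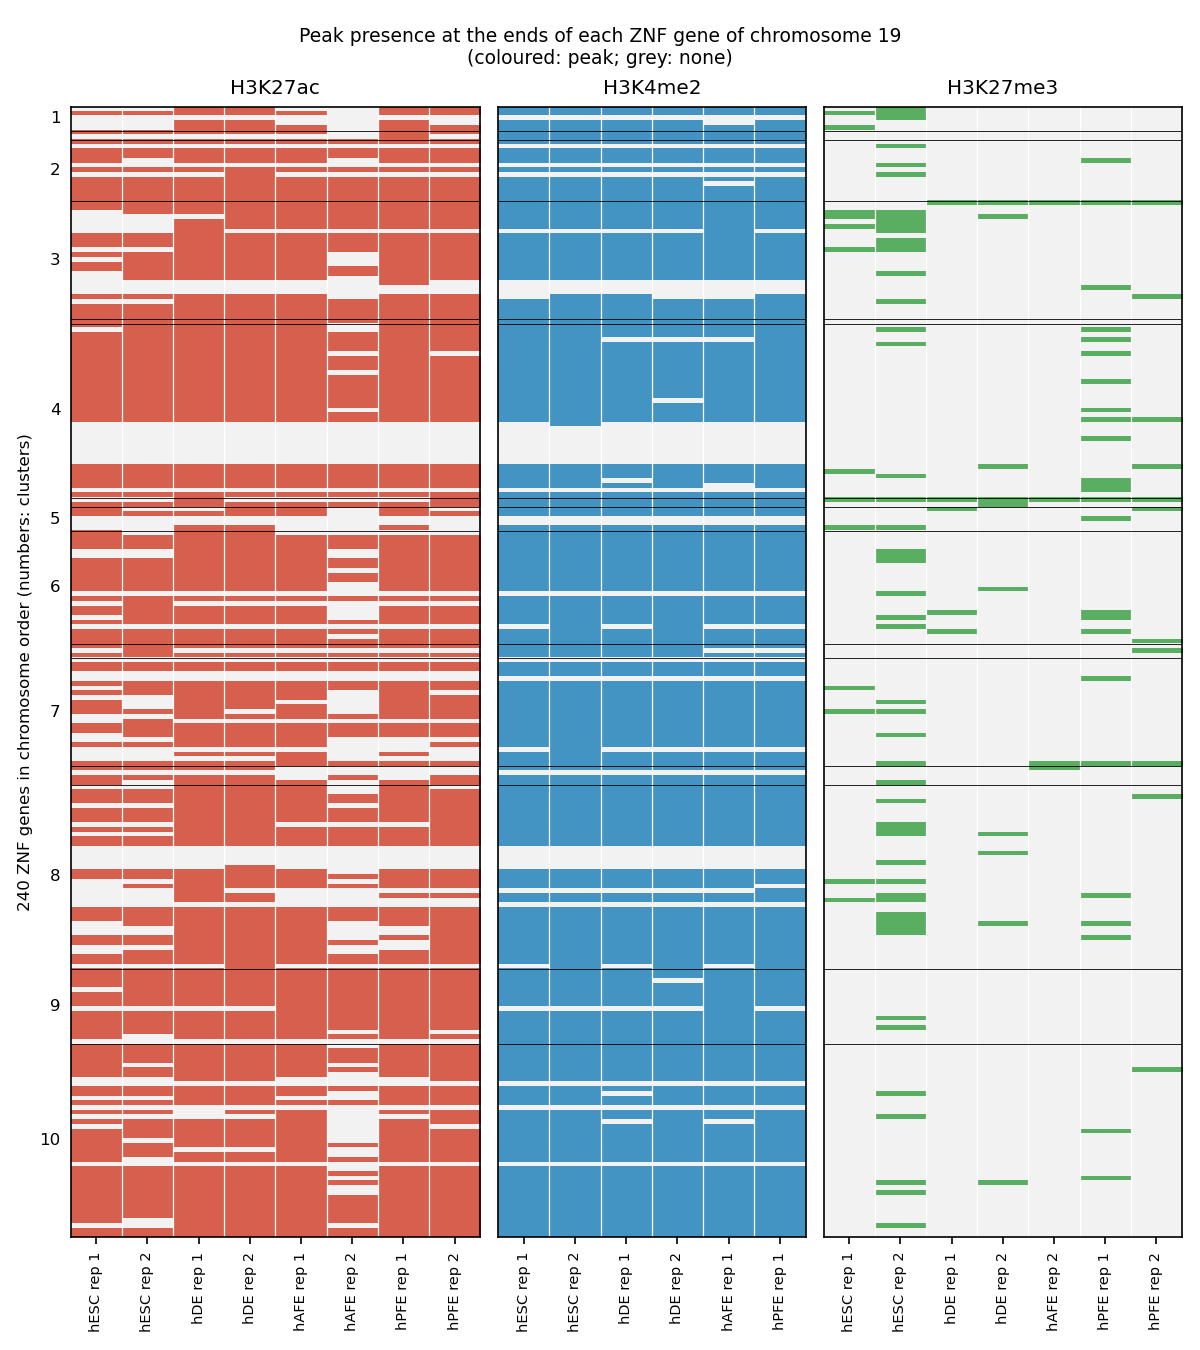
Presence of a peak within 1 kb of either end (coloured) for each of the 240 ZNF genes in chromosome order (rows) in each library (columns), by mark; lines separate the 10 clusters, whose numbers stand at the left, from each other and from the 12 genes outside clusters. H3K4me2 is present in all 6 libraries at 190 genes, 9 of the 31 genes without it lie in cluster 4, and the fullest H3K27me3 column, hESC replicate 2, holds 52 genes.

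The 240 genes formed 10 clusters of 3 or more with gaps of at most 500 kb, which held 228 genes. The clusters differed most in H3K27ac. Averaged over 8 libraries, its share was highest in the cluster from ZNF628 to ZNF835 (16 genes, 87.5%) and lowest in the cluster from ZNF302 to ZNF792 (5 genes, 35%). The cluster from ZNF175 to ZNF331 (39 genes) had 31 acetylated genes in hDE (79.5%), against 18 in hESC (46.2%). It held 10 of the 27 hDE gains, from 18 genes unmarked in hESC. The cluster from ZNF575 to ZNF180 (23 genes) had 16 in hDE (69.6%), against 9 in hESC (39.1%), with 4 gains of 9 unmarked. The cluster from ZNF653 to ZNF791 (25 genes) had 20 in hDE (80%), against 12 in hESC (48%), with 4 gains of 9 unmarked. In the small cluster from ZNF554 to ZNF77 (5 genes) the share was 80% in hDE, against 20% in hESC, with 3 gains of 4 unmarked.

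The cluster from ZNF101 to ZNF254 (37 genes over 4.46 Mb, beside the centromere) hardly moved. It had 26, 27, 22 and 26 acetylated genes in hESC, hDE, hAFE and hPFE (70.3%, 73%, 59.5% and 70.3%), and 0 of its 10 unmarked genes gained the mark in hDE. The clusters from ZNF414 to ZNF846 and from ZNF628 to ZNF835 also had no hDE gain, at 0 of 3 and 0 of 2. Of the 10 genes, 9 had no H3K4me2 at either end in any library, whereas all 27 hDE gains lay at genes with H3K4me2 in hESC. These 9, of the 31 genes without H3K4me2, include ZNF676, ZNF729, ZNF98, ZNF99 and ZNF728 in 1 block. Many genes of this block are recently duplicated copies, and how reads that map to several places were treated is not given in the sources used here.

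**Figure D5:**
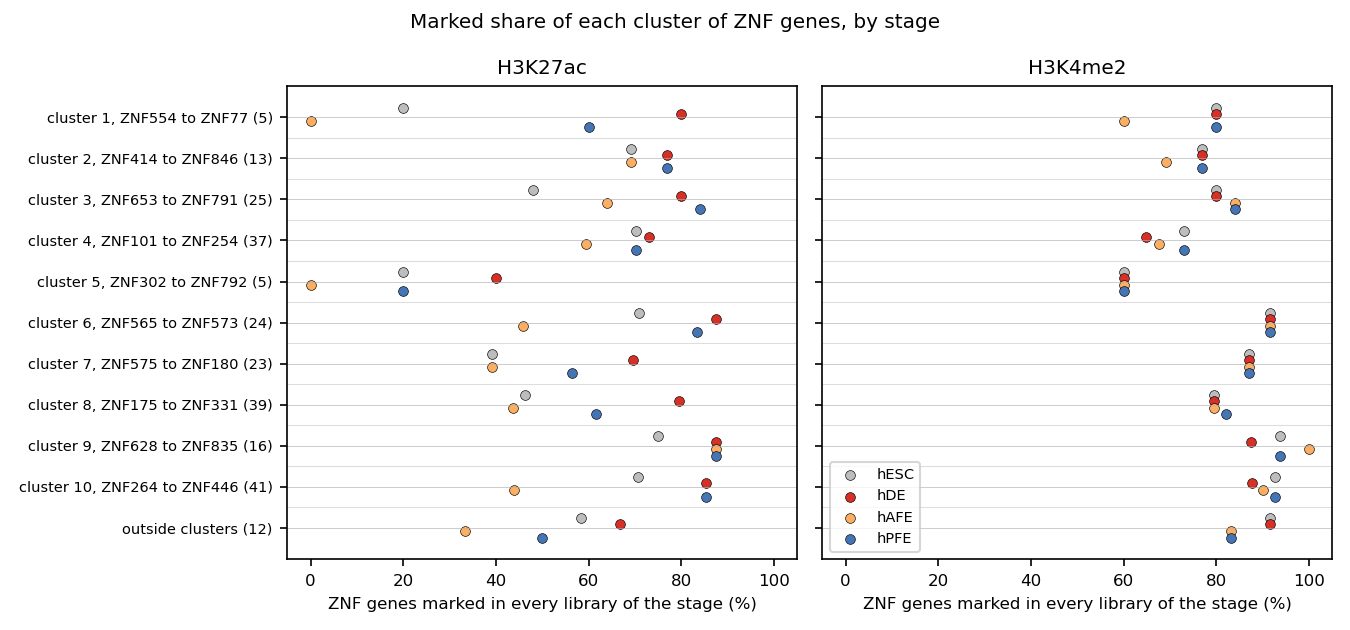
Share of the ZNF genes of each cluster marked in every library of a stage (x axis, %) for H3K27ac (left) and H3K4me2 (right), with clusters in chromosome order down the page, their gene number in brackets and stages by colour. H3K27ac spreads widely by stage in the cluster from ZNF175 to ZNF331 (79.5% in hDE, 46.2% in hESC), while its H3K4me2 stays between 79.5% and 82.1%; hAFE points are low where the short replicate 2 list lacks a peak.

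Inside the genes H3K27me3 looked different from its pattern at the ends. Searching whole genes, hESC replicate 2 had a peak in 54.2% of ZNF genes, against 40% of the others, and the hPFE libraries in 36.2% and 32.1%, against 23.8% and 28.1%. In the other 4 libraries ZNF genes were below the others, by most in hAFE (1.67% against 22.1%). ZNF genes were longer, with a median of 23.1 kb against 12.8 kb, and per Mb of gene they held fewer H3K27me3 peaks in all 7 libraries, for example 36.5 against 49.3 in hESC replicate 2 and 1.74 against 29.7 in hAFE. By position, the last of 4 equal parts of the gene, where the zinc fingers are usually encoded, held 32.8% and 38.1% of the H3K27me3 peaks placed within ZNF genes with a known strand in hESC, 21.1% and 25% in hDE, 8.33% of 12 peaks in hAFE and 32% and 34.4% in hPFE. The first part held 35.8% and 20.8% in hESC, so in replicate 1 it held more than the last. For H3K27ac the first part held 64.2% to 77.5% per library and the last 3.99% to 7.84%. The H3K27me3 peaks within ZNF genes had a median -log10 p of 3.7 and 3.84 in hESC, against 5.71 and 4.71 for those in the other genes.

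The partners of KRAB zinc finger proteins were acetylated at most stages. Of a list of 18 genes of the KRAB and TRIM28 pathway, 14, 16, 14 and 16 had H3K27ac in every library of hESC, hDE, hAFE and hPFE, beside 42.9%, 54%, 34.2% and 50.2% of all genes. H3K27me3 lay at 2, 0, 0 and 0 of them, beside 19.2%, 13.4%, 15.5% and 12.7% of all genes. TRIM28 and SETDB1 had H3K27ac in both libraries of every stage. The 2 with H3K27me3 in hESC were CHD3, a helicase of the NuRD complex, and TASOR, a subunit of the HUSH complex. CHD3 had H3K27ac in both hDE libraries and in neither hESC library. ZFP57, which guards imprinted regions, had H3K27ac in 1 hESC library and none later.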

How the data were processed

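Peak lists of H3K27ac, H3K4me2 and H3K27me3 from 21 libraries of H1 cells and their derivatives were used. Each list was made by the authors from 1 library and the input of its stage, after sorting and removal of duplicates, at a p-value of 0.01 and with at most 500K peaks, per the file names. Coordinates are hg38, per the submitters' processing notes. The sources used here do not name the aligner or the peak caller. The deposited fold enrichment of a peak (a ratio over input) and its deposited -log10 p are the authors' own values and describe or rank peaks within 1 list only. Read depth is unknown.

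Gene positions and promoters came from RefSeq tables (GRCh38.p14). Genes were matched to peaks with Python 3.11.15, numpy 2.4.6 and pandas 2.3.3, within 1 kb of either gene end. Among the 240 ZNF genes, 42 (17.5%) had an end window that touched that of another ZNF gene and 23 (9.58%) that of another gene. Figures were drawn with matplotlib 3.10.9. The calling of gains and losses was checked on simulated lists. No test was run. The labels do not say whether libraries with the same replicate number share a culture.

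Beside genes with a named role, the text names up to 5 gained and 5 lost genes per mark and comparison by the worse of their within-list ranks, genes marked in all or no libraries, and ends of a listed count. The example genes ZNF558, ZNF83, ZNF468, ZNF491 and ZNF441 and the comparisons among genes with equal hESC marks were chosen after their values were seen. The members and gene lists were chosen with earlier results of these data known. Alternatives were other windows, peak thresholds, list lengths, overlaps and comparison genes, and leaving out each library.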

Additional observations from a re-analysis of the deposited data

How the results depend on the processing

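No paired analysis was possible because no model was fitted and every value is a share or a count of peak presence. Of 197 recomputed values, 136 stayed close to the reported ones and 61 moved. No mean difference in shares changed sign. The H3K27ac difference (21.6 percentage points) was 20.6 to 22.8 with 1 library left out and 30 with any RefSeq start, an alternative chosen after seeing the data. The H3K4me2 difference (14.8) was 14.3 to 15.6 with 1 library left out, 17.6 over whole genes and 21.8 with any RefSeq start. The H3K27me3 difference (-10.9) was -12 to -10 with 1 library left out. Over whole genes it was -1.8 ± 12.7, and ZNF genes lay above the others in hESC replicate 2 and in both hPFE libraries.

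Counts of ZNF genes moved as follows. H3K27ac gained in hDE against hESC (27) was 16 with equal list lengths and 30 to 40 with 1 library left out; lost (1) was 2 with a 2.5 kb window, 3 with equal lengths and 1 to 4 with 1 left out. H3K27ac gained in hAFE against hDE (1) was 0 over whole genes, 5 with equal lengths, 2 with 200 bp of overlap and 1 to 4 with 1 left out; lost (11) was 17 at a -log10 p of 5 or more, 5 with equal lengths, 18 with 200 bp of overlap and 12 to 69. H3K27ac gained in hPFE against hAFE (4) was 4 to 54 with 1 left out; lost (0) was 1 over whole genes, 1 with equal lengths and 0 to 2. H3K27ac gained in hPFE against hESC (18) was 24 to 30 with 1 left out; lost (1) was 4 at a -log10 p of 5 or more, 6 with equal lengths, 4 with 200 bp of overlap and 2 to 4. H3K27me3 gained in hDE against hESC (1) was 2 over whole genes, 0 at starts alone and 1 to 5; lost (8) was 19 over whole genes, 4 at a -log10 p of 5 or more, 3 with 200 bp of overlap and 8 to 47. H3K27me3 gained in hPFE against hESC (2) was 4 with a 2.5 kb window, 10 over whole genes, 0 at starts alone, 1 at a -log10 p of 5 or more, 1 with equal lengths, 0 with 200 bp of overlap and 2 to 19; lost (9) was 5 at a -log10 p of 5 or more, 4 with 200 bp of overlap and 9 to 46. H3K4me2 lost in hDE against hESC (1) was 0 with a 2.5 kb window, over whole genes and at starts alone, 7 at a -log10 p of 5 or more, 3 with 200 bp of overlap and 1 to 4. A stage left with 1 library asks less of a gene, so such counts rise by construction. The causes of the other moves were not tested. Libraries with fewer peaks can miss weak marks, and read depth could not be weighed.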
